A study of Homo sapiens with 24 samples.

Results

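Endosomal sorting genes, here 10 genes of the ESCRT machinery and of the protein coats that work beside it, were described in AGO2-bound and total RNA of LNCaP cells, an androgen-sensitive human prostate cancer line. They were STAM, HGS, STAM2, STAMBP, TSG101, IST1, CHMP2A, VPS4A, WASHC5 and SNX7, out of 11963 genes that the arrays measured with a probe set of 1 gene symbol. Where a gene had several probe sets, the brightest on average over the 24 arrays stood for it; 9 of the 10 genes had 1 such probe set and STAM2 had 3. The genes were chosen by their values in AGO2-bound RNA, where several were far lower after each microRNA than after scramble. Their AGO2-bound levels are therefore given as a description, with no test, while their total RNA changes, which did not enter the choice, were tested.

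The cells were nucleofected with 2.5 µg of DNA, a plasmid encoding either miR-130a, miR-203, miR-205 or else a scramble microRNA, and each transfection gave both kinds of RNA. AGO2, an Argonaute protein that carries microRNAs and holds the transcripts they pair with, was taken from the cells with an antibody and the RNA bound to it was extracted. The 8 groups were AGO2-bound RNA after each of the 3 microRNAs and after scramble, and total RNA after the same transfections, with 3 Affymetrix arrays labelled as biological replicates in each and 2 µg of RNA on each array. All groups come from 1 cell line with microRNAs supplied from plasmids, and no untransfected cells were analysed here. The study addressed which transcripts the reconstituted microRNAs bind directly.

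ESCRT complexes sort ubiquitin-tagged membrane proteins, such as activated growth factor receptors, into vesicles that bud inside the endosome and are then degraded in the lysosome. ESCRT-0 gathers the cargo, ESCRT-I and ESCRT-II shape the bud, ESCRT-III filaments close its neck, and the ATPase VPS4 takes the filaments apart. Retromer, sorting nexins and the WASH complex work on the same endosomes and send cargo back to the cell surface or the Golgi.

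Mature sequences of miR-203 and miR-205 are shown because base pairing through the seed directs AGO2 to a transcript; miR-130a is named only. The labels give no arm, so the 3p arm of miR-203 and the 5p arm of miR-205 were chosen for display. The sequences below are from RefSeq on GRCh38.p14, 5′ to 3′, with the seed (bases 2 to 8) in capitals. MIR203A gives the first at chr14:104117469-104117490 and MIR205 the second at chr1:209432166-209432187, both on the plus strand.
hsa-miR-203a-3p: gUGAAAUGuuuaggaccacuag
hsa-miR-205-5p: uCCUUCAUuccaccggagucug
Both are 22 bases long and their seeds differ, with UGAAAUG in the first and CCUUCAU in the second.

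Values are log2 expression levels as deposited, so that 1 unit is a doubling. The lowest values took 3 levels, one for the arrays of miR-130a, one for those of miR-203 and one shared by miR-205 and scramble, so a separate processing run and the transfection cannot be told apart for miR-130a and miR-203. The comparison of miR-205 with scramble lies within 1 level, as does each comparison of AGO2-bound with total RNA in 1 transfection. Luminal prostate markers of LNCaP were well measured: all 6 on the array averaged above the filter on low values in every total RNA group. Of 7 markers of basal or mesenchymal lines none did so in every group and 1, VIM, did in at least 1 (highest group mean 3.21), while KRT5, CAV1 and AXL were at the lowest value on all 24 arrays. Summed over the 7, log2 levels in AGO2-bound RNA were 16.6 to 16.7 after miR-130a, 16.7 to 17.0 after miR-203 and 16.9 to 17.9 after miR-205, against 16.5 to 16.9 after scramble. In total RNA their sums were 17.0 to 17.3, 16.8 to 17.0 and 16.7 to 16.8, against 17.1 to 17.5. Sums of the 6 luminal markers in AGO2-bound RNA were 48.3 to 48.9 after miR-130a, 46.5 to 48.3 after miR-203 and 49.1 to 51.8 after miR-205, against 46.7 to 49.0 after scramble. Their total RNA sums were 52.6 to 52.8, 47.6 to 49.3 and 53.3 to 54.3, against 52.5 to 52.8. After miR-205 the AGO2-bound sums of both lists were above scramble without overlap. In total RNA the basal or mesenchymal sum was lower after miR-203 and miR-205, and the luminal sum lower after miR-203 and higher after miR-205, and the part of these shifts in the results was not tested. The 18S ribosomal RNA controls averaged 7.63 to 8.64 in the groups of AGO2-bound RNA and 3.40 to 3.74 in those of total RNA, and 1 total RNA array, scramble replicate 1, stood at 4.33 against 2.83 and 3.05 in the other scramble replicates. The labels call the arrays biological replicates but describe no separate cultures behind them. The p-values here therefore reflect array-to-array spread only, and how much of it is technical is not known.

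In AGO2-bound RNA, 6 of the 10 genes (STAM, STAMBP, TSG101, IST1, WASHC5 and SNX7) were lower on all 9 microRNA arrays than on all 3 scramble arrays, as were 8.76% of the 6782 genes above the filter (3.36% were higher on all 9), while STAM2, HGS, CHMP2A and VPS4A overlapped. The 6 genes were the ones whose values led to the choice, and the 3 comparisons share the same scramble arrays. The median log2 change of the 10 genes was -2.07 after miR-130a, -2.52 for miR-203 and -2.31 for miR-205, beside -0.05, -0.09 and -0.06 over all genes. For each of the 6 genes the AGO2-bound scramble mean was the highest of the 8 groups and overlapped no other.

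**Figure D1:**
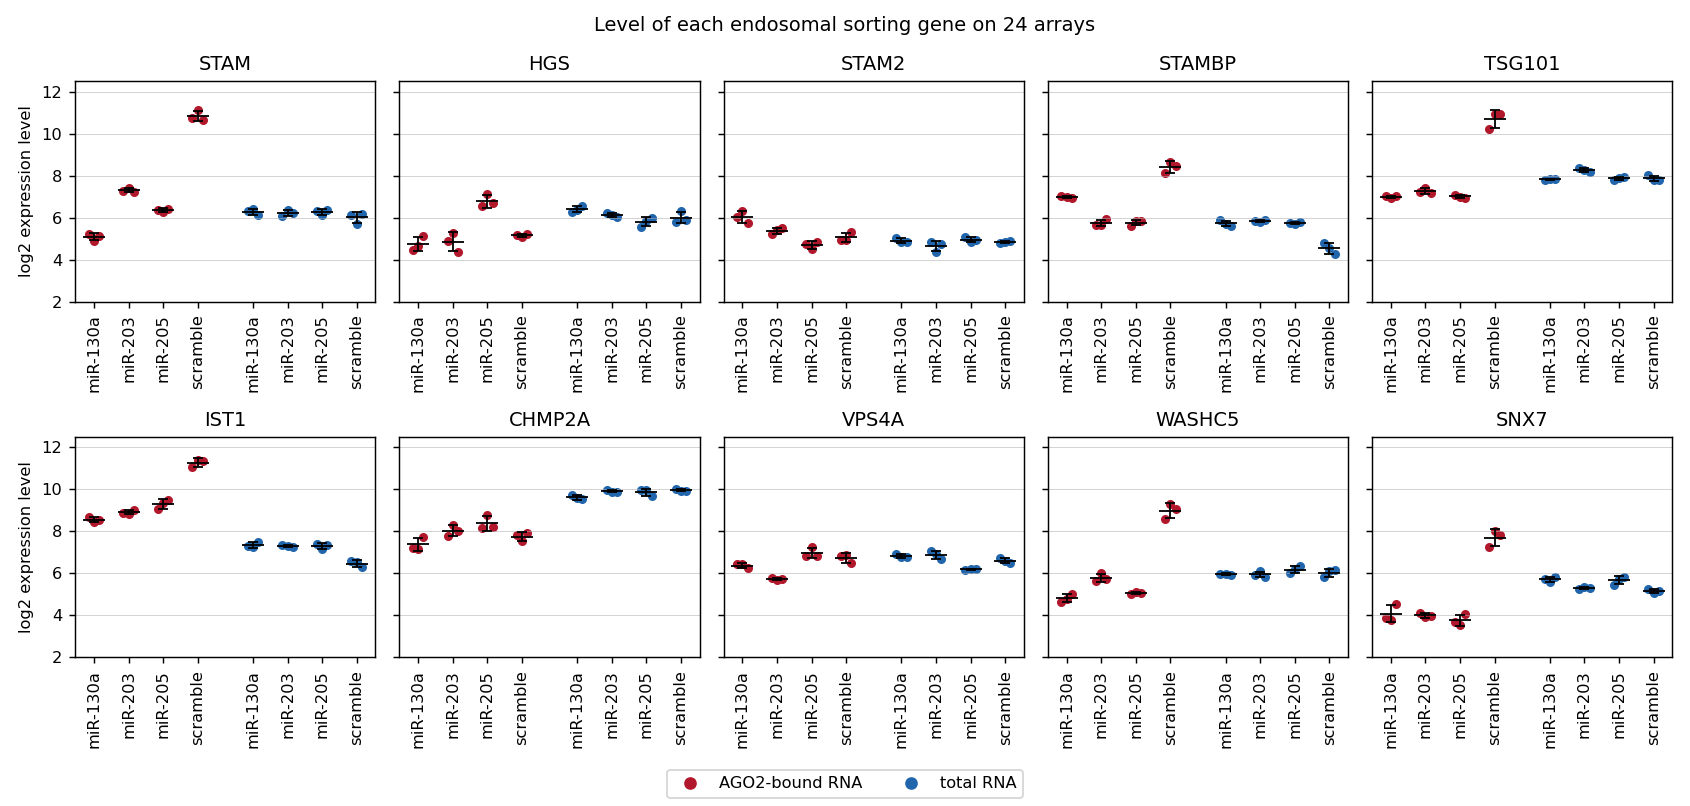
Log2 expression level of each of the 10 genes (y axis) on the arrays of AGO2-bound RNA (red) and total RNA (blue) after each transfection (x axis). Points are single arrays, and bars give the mean ± SD (n = 3). In 6 panels (STAM, STAMBP, TSG101, IST1, WASHC5 and SNX7) the AGO2-bound scramble arrays sit above all other arrays.

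Among the ESCRT-0 genes, which recognise ubiquitin on cargo, STAM had the largest deficit. STAM encodes a signal-transducing adaptor that binds HGS and clathrin-coated endosomal membrane. Its AGO2-bound levels were 5.24, 4.91 and 5.12 with miR-130a, 7.26, 7.41 and 7.23 with miR-203, and 6.37, 6.25 and 6.44 with miR-205, against 10.76, 11.12 and 10.67 with scramble. Every microRNA array was far below every scramble array, and the microRNAs kept an order of their own, with miR-203 highest and miR-130a lowest and no overlap between them. The log2 change was -5.76 ± 0.15 (SE, n = 3 in each group) after miR-130a, -3.55 for miR-203 and -4.50 for miR-205 with the same SE, or 54.1-fold, 11.7-fold and 22.6-fold lower.

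Total RNA gave STAM levels of 6.32, 6.41 and 6.14 with miR-130a, 6.10, 6.34 and 6.23 with miR-203, and 6.31, 6.13 and 6.39 with miR-205, against 6.14, 5.72 and 6.17 with scramble. The ranges of the groups overlapped, and the changes of 0.28, 0.22 and 0.26 ± 0.13 did not pass the test (limma adjusted p = 0.12, 0.2 and 0.17). Ordered by mean level, the AGO2-bound scramble arrays came first and those of miR-203 second. AGO2-bound RNA after miR-205 and the 4 total RNA groups followed, each overlapping its neighbour in that order, and AGO2-bound RNA after miR-130a was lowest and apart.

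HGS, the partner of STAM and the ESCRT-0 subunit that binds the endosomal lipid PI3P, behaved differently. Its AGO2-bound levels were 4.44, 4.67 and 5.11 with miR-130a, 4.88, 5.29 and 4.39 with miR-203, and 6.56, 7.14 and 6.68 with miR-205, against 5.18, 5.08 and 5.22 with scramble. Only the miR-205 arrays stood clear of scramble, above it by 1.63 ± 0.23, and the others overlapped it. Total RNA of HGS averaged 6.40 ± 0.15 with miR-130a, 6.12 ± 0.11 with miR-203 and 5.81 ± 0.21 with miR-205, against 6.0 ± 0.27 with scramble (SD, n = 3 each), and no change passed the test. The change of 0.40 after miR-130a had a limma adjusted p of 0.053, and it passed the test under 4 of 17 alternatives. It was 0.56 (adjusted p = 0.011) without total scramble replicate 2, its highest scramble array, and 0.43 (adjusted p = 0.023) with array weights, and with the filter at the 60th percentile or an eBayes trend the adjusted p was 0.049 or 0.047.

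STAM2, the paralogue of STAM, had no deficit of that kind. AGO2-bound levels were 6.03, 6.32 and 5.77 with miR-130a, 5.23, 5.43 and 5.50 with miR-203, and 4.77, 4.50 and 4.86 with miR-205, against 4.92, 4.96 and 5.32 with scramble. The miR-130a arrays were above scramble, those of miR-205 just below it, and those of miR-203 overlapped it. The changes were 0.97, 0.32 and -0.35 ± 0.17, in the order miR-130a, miR-203, miR-205. In total RNA its changes of 0.07, -0.18 and 0.12 ± 0.12 did not pass the test (limma adjusted p = 0.69, 0.26 and 0.51). A second STAM2 probe set was also higher in AGO2-bound RNA after miR-130a (mean 4.16) and miR-203 (3.85) than after scramble (2.64). Unlike the first, it was higher in total RNA too after miR-130a (3.38) and miR-203 (3.24) than after scramble (2.73), without overlap. A further one lay near the lowest value of the arrays.

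STAMBP, a deubiquitinase that binds STAM and removes ubiquitin from cargo, moved in opposite directions in both kinds of RNA. AGO2-bound levels were 7.02, 6.98 and 6.95 with miR-130a, 5.64, 5.66 and 5.93 with miR-203, and 5.61, 5.83 and 5.84 with miR-205, against 8.12, 8.67 and 8.46 with scramble. All microRNA arrays were below scramble, and those of miR-130a lay between scramble and the other microRNAs. Its AGO2-bound changes were -1.43, -2.67 and -2.65 ± 0.15.

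In total RNA STAMBP levels were 5.88, 5.70 and 5.62 with miR-130a, 5.86, 5.80 and 5.91 with miR-203, and 5.77, 5.69 and 5.81 with miR-205, against 4.80, 4.54 and 4.29 with scramble. The 9 microRNA arrays lay close together and all above scramble. The rises of 1.19, 1.32 and 1.21 ± 0.12 passed the test (limma adjusted p = 1.8e-05, 5.6e-06 and 2.2e-05), or 2.29-fold, 2.49-fold and 2.32-fold. Leaving out any 1 array, scramble replicate 1 with its high 18S level included, kept them between 1.07 and 1.44.

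TSG101, the ESCRT-I subunit that binds ubiquitinated cargo and the late motifs of budding viruses, had AGO2-bound levels of 7.02, 6.94 and 7.02 with miR-130a, 7.23, 7.41 and 7.16 with miR-203, and 7.09, 6.99 and 6.95 with miR-205, against 10.22, 10.93 and 10.95 with scramble. The 9 microRNA arrays fell within a narrow band, well below scramble. Its changes were -3.71, -3.43 and -3.69 ± 0.18, a 10.8-fold to 13.1-fold deficit, and scramble replicate 1 was the lowest of the scramble arrays. Without that array the changes were -3.95, -3.67 and -3.93.

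Total RNA of TSG101 was 7.82, 7.82 and 7.85 with miR-130a, 8.35, 8.27 and 8.15 with miR-203, and 7.80, 7.91 and 7.92 with miR-205, against 8.01, 7.81 and 7.78 with scramble. Only miR-203 stood above scramble, by 0.39 ± 0.09 (limma adjusted p = 0.0036), and the changes of -0.04 and 0.01 after miR-130a and miR-205 did not pass the test.

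IST1, an ESCRT-III-like protein that regulates VPS4 and also acts in recycling tubules, had AGO2-bound levels of 8.66, 8.43 and 8.54 with miR-130a, 8.87, 8.82 and 9.0 with miR-203, and 9.06, 9.34 and 9.49 with miR-205, against 11.04, 11.40 and 11.36 with scramble. The microRNA groups did not overlap each other or scramble, and miR-205 was the nearest to it. Deficits were -2.72, -2.37 and -1.97 ± 0.15.

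As for STAMBP, total RNA of IST1 rose after all 3 microRNAs. Its levels were 7.28, 7.26 and 7.49 with miR-130a, 7.37, 7.29 and 7.24 with miR-203, and 7.40, 7.13 and 7.35 with miR-205, against 6.58, 6.51 and 6.28 with scramble. No microRNA array overlapped scramble, and the changes were 0.89, 0.84 and 0.83 ± 0.11 (limma adjusted p = 8.5e-05, 7.7e-05 and 0.00015). Without any 1 array they stayed between 0.75 and 0.95. STAMBP and IST1 were the 2 members with all 9 total RNA microRNA arrays above scramble, as were 3.32% of all genes tested, and no member had all 9 below (3.66%).

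CHMP2A, a filament-forming ESCRT-III subunit, had no AGO2-bound deficit shared by the microRNAs. Its AGO2-bound levels were 7.21, 7.18 and 7.73 with miR-130a, 7.76, 8.27 and 8.03 with miR-203, and 8.15, 8.77 and 8.18 with miR-205, against 7.80, 7.51 and 7.91 with scramble. The miR-205 arrays lay above scramble and the others overlapped it. In total RNA the change after miR-130a was -0.33 ± 0.10 (limma adjusted p = 0.023), with levels of 9.73, 9.58 and 9.53 against 9.99, 9.90 and 9.93 after scramble. That call ended with all 24 arrays in 1 fit (adjusted p = 0.2), without miR-130a replicate 2 or 3 (0.071 and 0.086), and without scramble replicate 1 or 3 (0.059 and 0.054).

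VPS4A, one of the ATPases that disassemble ESCRT-III, had AGO2-bound levels of 6.42, 6.43 and 6.23 with miR-130a, 5.76, 5.69 and 5.74 with miR-203, and 6.83, 7.25 and 6.84 with miR-205, against 6.84, 6.86 and 6.47 with scramble. Both miR-130a and miR-203 arrays were below scramble, by 0.37 and 1.00 on the log2 scale with an SE of 0.15, and miR-205 overlapped it. Total RNA of VPS4A was 6.16, 6.18 and 6.22 after miR-205 against 6.74, 6.59 and 6.48 after scramble, a fall of -0.42 ± 0.11 (limma adjusted p = 0.013). The change of 0.28 after miR-203 missed the threshold (adjusted p = 0.053) and passed it under 7 of 17 alternatives. Besides the fits without miR-203 replicate 3 (0.39, adjusted p = 0.011) or scramble replicate 1 (0.35, adjusted p = 0.031), these were array weights (0.014), quantile normalization, median centring and the replicate block (0.039 each) and the filter at the 60th percentile (0.049).

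Outside ESCRT, WASHC5 encodes strumpellin, a core subunit of the WASH complex, which builds branched actin on endosomes. AGO2-bound WASHC5 levels were 4.64, 4.77 and 5.04 with miR-130a, 5.61, 6.01 and 5.74 with miR-203, and 5.02, 5.11 and 5.07 with miR-205, against 8.58, 9.30 and 9.04 with scramble. All 9 microRNA arrays were well below all scramble arrays, with miR-203 nearest to them. The changes were -4.16, -3.19 and -3.90 ± 0.18. In total RNA WASHC5 averaged 5.96 ± 0.03, 5.94 ± 0.14 and 6.17 ± 0.18 after miR-130a, miR-203 and miR-205, against 6.03 ± 0.19 after scramble (SD, n = 3 each), and no change passed the test (limma adjusted p = 0.68, 0.56 and 0.43).

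SNX7, a sorting nexin that pairs with SNX4 in endosomal recycling, had AGO2-bound levels of 3.89, 3.78 and 4.54 with miR-130a, 4.12, 3.91 and 3.98 with miR-203, and 3.70, 3.52 and 4.06 with miR-205, against 7.23, 8.01 and 7.83 with scramble. The 3 microRNAs overlapped each other and were all well below scramble. Its changes were -3.62, -3.69 and -3.93 ± 0.23.

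Total RNA of SNX7 was 5.72, 5.59 and 5.82 with miR-130a, 5.23, 5.34 and 5.30 with miR-203, and 5.44, 5.75 and 5.83 with miR-205, against 5.23, 5.04 and 5.15 with scramble. It rose after miR-130a by 0.57 ± 0.11 (limma adjusted p = 0.0021) and after miR-205 by 0.53 ± 0.11 (adjusted p = 0.0033), and the change of 0.15 after miR-203 did not pass the test (adjusted p = 0.28). The miR-205 call ended with all 24 arrays in 1 fit (adjusted p = 0.057).

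Counted by comparison, the AGO2-bound arrays did not overlap scramble at 7 members below and 1 above after miR-130a (27.3% and 24.5% of all genes), at 7 below and 0 above after miR-203 (33.5% and 26.8%), and at 7 below and 2 above after miR-205 (27.9% and 23.6%). With at least a 4-fold deficit there were 5, 6 and 5 members, against 1.14%, 1.33% and 1.24% of all genes, counts that the choice of members fixed in part. In total RNA, 3 members were called higher and 1 lower after miR-130a (15.9% and 13.3% of all genes), 3 higher and 0 lower after miR-203 (19.8% in each direction), and 3 higher and 1 lower after miR-205 (10.1% and 13.3%). After miR-130a the calls were STAMBP, IST1 and SNX7 higher and CHMP2A lower, after miR-203 they were STAMBP, IST1 and TSG101 higher, and after miR-205 they were STAMBP, IST1 and SNX7 higher and VPS4A lower. Only the STAMBP and IST1 changes exceeded 1.5-fold, and the calls of SNX7, TSG101 and VPS4A held without any 1 array. None of the 6 genes with an AGO2-bound deficit after each microRNA was called lower in total RNA after any of them.

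**Figure D2:**
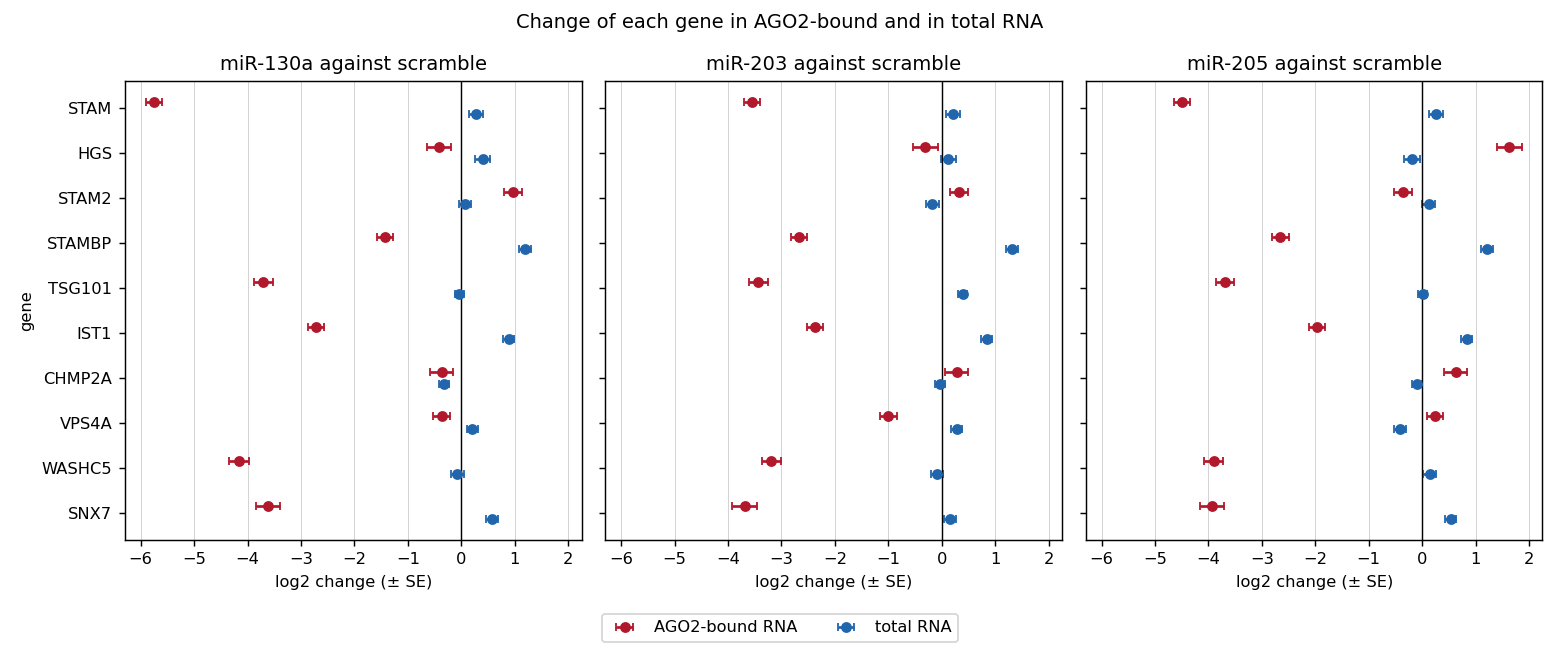
Log2 change of each gene against scramble (x axis, mean difference ± SE from limma, n = 3 arrays per group) in AGO2-bound RNA (red) and total RNA (blue), 1 panel for each microRNA. AGO2-bound changes reach -5.76 at STAM, while total RNA changes stay between -0.42 and 1.32.

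Setting AGO2-bound against total RNA within each transfection keeps both kinds of RNA in 1 processing level. Means are used here, as a description, and the AGO2-bound values in them led to the choice of members. The counts of members below were fixed in part by that choice. The AGO2-bound level exceeded the total RNA level by 4.84 for STAM, 4.81 for IST1, 3.87 for STAMBP, 2.94 for WASHC5, 2.83 for TSG101 and 2.55 for SNX7 after scramble, all at least 4-fold and without overlap, as were 8.33% of all genes. After miR-130a 0 members were at least 4-fold above total RNA (7.49% of all genes), after miR-203 also 0 (7.25%), and after miR-205 1, IST1 at 2.01 (8.46%). STAM, for example, differed from its total RNA level by -1.20 with miR-130a, 1.07 with miR-203 and 0.08 with miR-205. CHMP2A was the reverse case, at least 4-fold lower in AGO2-bound than in total RNA after miR-130a (-2.24; 2.08% of all genes) and after scramble (-2.20; 2.6%), and no member was so after miR-203 or miR-205 (2.52% and 2.88%). The median of the 10 genes was -0.99, -0.57 and -0.12 after miR-130a, miR-203 and miR-205, against 2.69 after scramble.

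**Figure D3:**
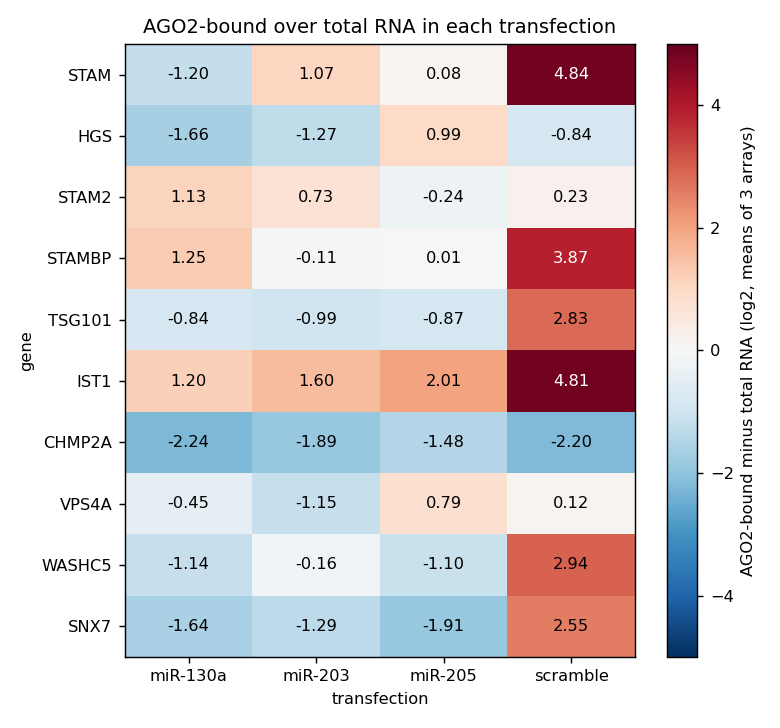
Difference of the mean log2 levels of AGO2-bound and total RNA (colour and printed value, 3 arrays each) for each gene (rows) after each transfection (columns). STAM, STAMBP, TSG101, IST1, WASHC5 and SNX7, whose AGO2-bound values led to the choice, reach 2.55 to 4.84 after scramble and lie between -1.91 and 2.01 after the microRNAs.

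Taking the total RNA change away from the AGO2-bound change gave deficits of -6.04, -3.77 and -4.76 ± 0.20 for STAM after miR-130a, miR-203 and miR-205. For STAMBP, whose total RNA rose, the deficits grew to -2.62, -3.99 and -3.87 ± 0.20, and for IST1 to -3.61, -3.21 and -2.80 ± 0.19. WASHC5 stood at -4.09, -3.10 and -4.04 ± 0.22. TSG101 stood at -3.67, -3.82 and -3.70 ± 0.20, where its called rise in total RNA after miR-203 made that deficit larger than the AGO2-bound change of -3.43. In bulk RNA, fewer cells holding a transcript and less of it in each cell cannot be told apart.

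Measures of RNA quality were set beside the AGO2-bound deficits. The 18S control averaged 7.91 ± 0.32, 8.64 ± 0.50 and 7.67 ± 0.29 after miR-130a, miR-203 and miR-205, against 7.63 ± 0.29 after scramble (SD, n = 3 each). The difference between the 3 prime and 5 prime ACTB probe sets, a measure of RNA degradation, averaged 2.55 ± 0.30, 2.68 ± 0.34 and 3.45 ± 0.43 on the same arrays, against 3.40 ± 0.45 after scramble. The same difference for GAPDH averaged 1.25 ± 0.05, 0.77 ± 0.15 and 1.55 ± 0.17, against 1.40 ± 0.17. The miR-205 arrays overlapped scramble in all 3 measures, though an overlap of 3 arrays with 3 cannot show that the groups were alike. The ACTB difference was lower than scramble without overlap after miR-130a and miR-203, as was the GAPDH difference after miR-203. The 18S level of miR-203 was higher without overlap. The part of RNA quality in the deficits was not tested for any of the 3 microRNAs. STAM, HGS, IST1, CHMP2A and SNX7 are measured by probe sets whose probes can match more than 1 transcript.

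The genes whose levels ran most like STAM over the 24 arrays were TAF6 (Pearson r = 0.96), MANSC1 (0.95), GATB (0.95), ETS2 (0.94) and SMIM7 (0.93), as a description over arrays that share their transfections. TAF6 averaged 5.38, 6.04 and 5.82 in AGO2-bound RNA after miR-130a, miR-203 and miR-205, against 7.52 after scramble. In SMIM7 the same groups averaged 5.83, 6.46 and 7.36, against 10.42. In each of these genes, as in STAM, the AGO2-bound scramble mean was the highest of the 8 groups, which follows in part from choosing them by likeness to STAM.

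Beyond the 10 genes, 47 further genes of ESCRT, WASH, retromer and sorting nexins were listed, of which 28 were on the array with 1 symbol and 27 passed the filter. Their AGO2-bound changes were tested, since none of them is a member. The members, chosen by AGO2-bound values, had been taken out of the same pathway, so the AGO2-bound results of the remaining 27 are not free of that choice. The limma test called 9 lower and 4 higher after miR-130a (19.9% and 18.6% of all genes), 11 lower and 7 higher after miR-203 (28.8% and 22.7%), and 9 lower and 6 higher after miR-205 (23.7% and 20.4%). Median changes of the 27 were -0.21, -0.14 and -0.33, beside -0.05, -0.09 and -0.06 over all genes. In total RNA 3 were lower and 5 higher after miR-130a (13.3% and 15.9% of all genes), 3 lower and 7 higher after miR-203 (19.8% in each direction), and 3 lower and 5 higher after miR-205 (13.3% and 10.1%), with medians of 0.13, 0.04 and 0.03 beside 0.01, 0.01 and -0.01. The AGO2 change beyond total RNA was lower at 7 and higher at 3 after miR-130a (18.4% and 16.2% of all genes), at 12 and 5 after miR-203 (27% and 22.1%), and at 10 and 4 after miR-205 (21.7% and 21.1%). No AGO2-bound change of the 27 was below -2.37, a bound set in part by the choice of members.

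CHMP7, an ESCRT-III protein that also works at the nuclear envelope, had the largest AGO2-bound fall of the 27 after miR-130a and miR-203. Its AGO2-bound levels were 6.07, 6.19 and 6.37 with miR-130a, 5.90, 6.03 and 5.87 with miR-203, and 6.74, 6.81 and 6.83 with miR-205, against 7.95, 8.59 and 8.37 with scramble. All 9 microRNA arrays were below scramble, with changes of -2.09, -2.37 and -1.51 ± 0.16 (limma adjusted p = 2.5e-07, 5.7e-08 and 4e-06). Total RNA of CHMP7 rose by 0.38 after miR-130a, 0.53 for miR-203 and 0.68 for miR-205 with an SE of 0.11 (adjusted p = 0.023, 0.0028 and 0.00083), so its AGO2 change beyond total RNA was -2.47, -2.89 and -2.19 ± 0.20 (adjusted p = 6.8e-10, 2e-11 and 2.6e-09).

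SNX4, the recycling partner of SNX7, was also lower in AGO2-bound RNA after each microRNA. Levels were 7.83, 8.07 and 7.87 with miR-130a, 6.86, 6.47 and 6.52 with miR-203, and 7.26, 7.14 and 7.47 with miR-205, against 8.67, 8.83 and 8.45 with scramble. No array of a microRNA reached scramble, and the changes were -0.73, -2.04 and -1.36 ± 0.16 (limma adjusted p = 0.0021, 1.8e-07 and 7.9e-06). Total RNA of SNX4 was higher after miR-130a by 0.41 ± 0.09 (adjusted p = 0.0053) and after miR-205 by 0.40 ± 0.09 (adjusted p = 0.0066). AGO2-bound SNX3, another sorting nexin, was likewise below scramble on every microRNA array. Its changes were -0.92, -1.83 and -1.84 ± 0.24 (limma adjusted p = 0.0081, 2.8e-05 and 2.8e-05). No change in total RNA of SNX3 passed the test. The SNX4 and SNX3 probe sets can match more than 1 transcript.

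Some of the other genes went against the members or differed between the microRNAs. CHMP2B, an ESCRT-III subunit altered in a form of frontotemporal dementia, had total RNA levels of 5.80, 6.33 and 6.36 after miR-205 against 7.83, 7.49 and 7.61 after scramble, and AGO2-bound levels of 8.99, 9.01 and 9.71 after miR-205 against 7.87, 8.19 and 8.15 after scramble. Its total RNA was lower and its AGO2-bound RNA higher, without overlap, by -1.48 ± 0.15 (limma adjusted p = 2.6e-05) and 1.17 ± 0.21 (adjusted p = 0.00039).

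After miR-203 VPS35, the central subunit of retromer, had AGO2-bound levels of 9.05, 9.37 and 9.32, against 7.78, 7.76 and 8.08 after scramble, and total RNA levels of 8.26, 8.24 and 8.23, against 8.80, 8.56 and 8.75 after scramble. SNX1, a nexin that forms retromer-linked tubules, moved the same way. The AGO2-bound rise was 1.37 ± 0.16 for VPS35 and 1.33 ± 0.17 for SNX1 (limma adjusted p = 8.4e-06 and 2.7e-05), and the total RNA fall was -0.46 ± 0.09 and -0.63 ± 0.10 (adjusted p = 0.0018 and 0.00057). The VPS35 and SNX1 probe sets can match more than 1 transcript.

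AGO2-bound SNF8, a subunit of ESCRT-II, rose after miR-205 by 1.19 ± 0.22 (limma adjusted p = 0.00056), while its total RNA fell by 0.61 ± 0.12 on the log2 scale (adjusted p = 0.0029). USP8, a deubiquitinase that binds STAM and acts on the same cargo as STAMBP, rose in its AGO2-bound form after miR-205 by 1.41 ± 0.19 (adjusted p = 4.5e-05), with no called change in total RNA (adjusted p = 0.9). WASHC3, a subunit of the WASH complex beside WASHC5, was lower in total RNA after all 3 microRNAs, by -0.50, -0.70 and -0.67 ± 0.10 (adjusted p = 0.0029, 0.00019 and 0.00044), unlike total RNA of WASHC5. AGO2-bound WASHC3 was also lower after miR-130a (-0.835, adjusted p = 0.0012) and miR-205 (-1.316, adjusted p = 2e-05), with no called change after miR-203 (adjusted p = 0.49).

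**Figure D4:**
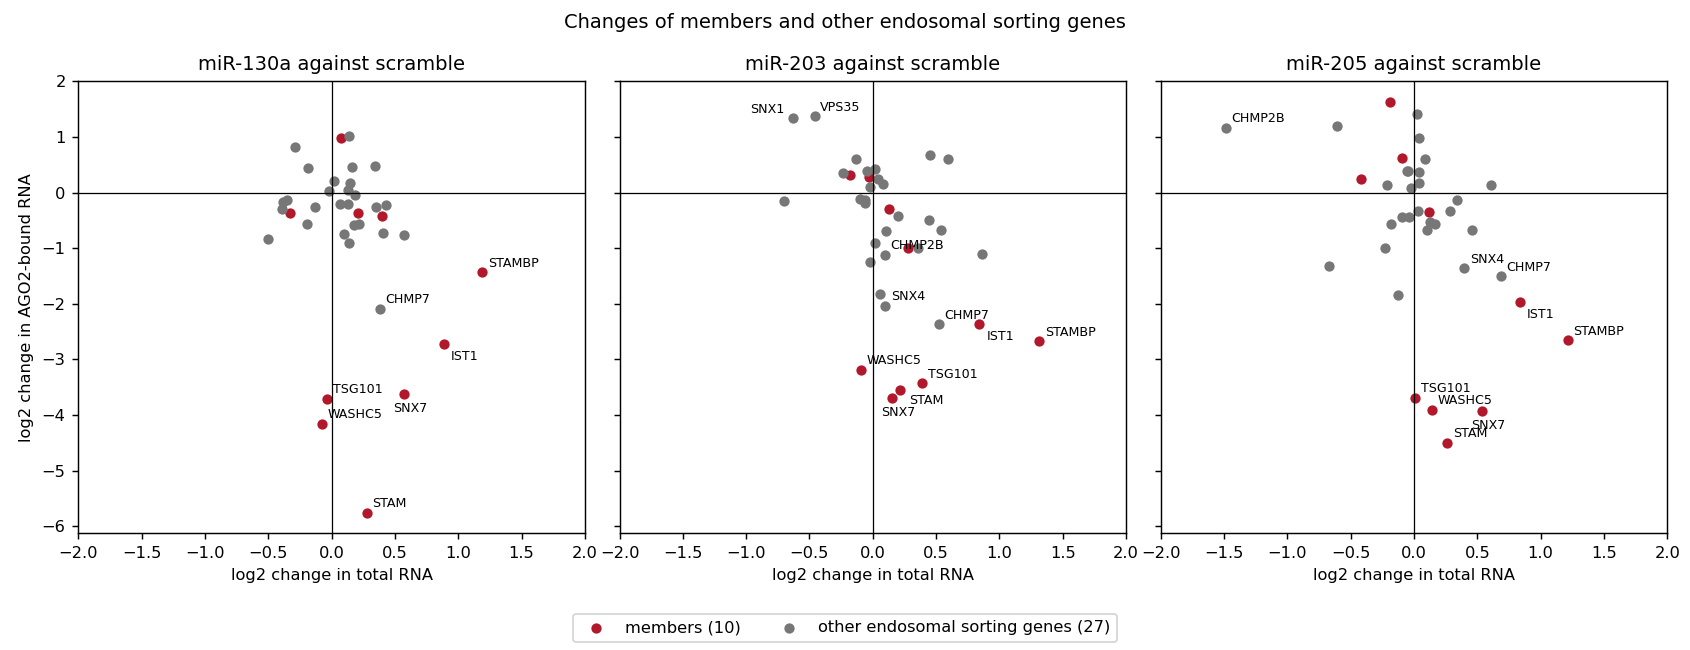
Log2 change in AGO2-bound RNA (y axis) against log2 change in total RNA (x axis) for the 10 genes (red) and 27 other endosomal sorting genes (grey), 1 panel for each microRNA against scramble. Red points lie down to -5.76 on the y axis, grey points down to -2.37, and CHMP2B after miR-205 is the grey point at -1.48 and 1.17. The red genes were chosen by AGO2-bound values, which fixed this contrast in part.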

How the data were processed

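RNA was measured on 24 arrays in 8 groups of 3. The authors deposited log2 expression values for 22277 probe sets. Per the submitters' processing notes R 2.9.0 was used, with GCRMA and with RMA, and their order is not given in the sources used here. Between 39.9% and 41.5% of probe sets on an array lay within 0.05 of its lowest value, so changes of dim transcripts are compressed. Arrays have no depth, so precision depends on how many there are.

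Platform annotation gave 19064 probe sets 1 gene symbol, 1043 several and 2108 none here, with 62 controls. Each gene was its probe set of highest mean, and genes averaging below 2.85, the median over probe sets, were dropped; 6782 remained, all 10 members among them. Changes were tested, two-sided, with lmFit and eBayes of limma 3.58.1 (R 4.3.3), with Benjamini-Hochberg adjustment over the 6782 genes and a threshold of 0.05. AGO2-bound RNA (12 arrays) and total RNA (12 arrays) were fitted apart; all 24 entered the AGO2 change beyond total RNA. The code was tested on simulated data.

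Members and lists were chosen with earlier results of these data known. Named genes were the 10 members and, of the other listed genes, at most the 3 with the smallest adjusted p in each direction; values of a named gene in further comparisons are given too. Alternatives varied the filter, normalization, probe set, fit and arrays.

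Replicate numbers were checked for pairing through the correlation of deviations from group means. Same-numbered AGO2-bound arrays correlated at 0.50, 0.11 and 0.52 for miR-130a with scramble and at 0.58, 0.16 and 0.44 for miR-203, and were read as paired. Those of miR-205 correlated at 0.52, -0.04 and 0.32, positive for replicates 1 and 3 but not for replicate 2, so their pairing was left undecided. Those of total RNA (-0.10 to 0.05) were not read as paired. The main fits did not use this pairing, and the replicate number entered only as a block among the alternatives.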

Additional observations from a re-analysis of the deposited data

Results flagged for a closer look

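Values here are AGO2 changes beyond total RNA, on the log2 scale. For members, every AGO2-bound microRNA array lay on one side of scramble and every total RNA array on the other, and the difference was not tested because AGO2-bound values chose the members. These were STAMBP at -2.62, -3.99 and -3.87 and IST1 at -3.61, -3.21 and -2.80 after miR-130a, miR-203 and miR-205. SNX7 was at -4.19 after miR-130a and -4.47 after miR-205, TSG101 at -3.82 after miR-203, and VPS4A at -0.58 after miR-130a.

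For the other endosomal sorting genes the difference between both kinds of RNA passed limma's test over all 24 arrays. After miR-130a CHMP7 (-2.47), SNX5 (-1.33) and SNX4 (-1.14) were lower, and SNX6 (0.88), SNF8 (1.10) and WASHC2C (0.64) higher. WASHC2C lost its call without AGO2-bound miR-130a replicate 3 (0.52, limma adjusted p = 0.067), AGO2-bound scramble replicate 1 (0.48, adjusted p = 0.076) or total scramble replicate 1 (0.58, adjusted p = 0.051). After miR-203 CHMP7 (-2.89), SNX4 (-2.13) and SNX6 (-1.96) were lower, and VPS35 (1.83), SNX1 (1.96) and USP8 (0.74) higher. After miR-205 CHMP7 (-2.19), SNX4 (-1.76) and SNX3 (-1.72) were lower, and CHMP2B (2.65), SNF8 (1.80) and USP8 (1.38) higher. Of these genes, SNX1, SNX3, SNX4, VPS35 and WASHC2C are measured by probe sets that can match more than 1 transcript.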

How the results depend on the processing

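Of 336 recomputed counts of called genes, 321 stayed within 1.5 times the count reported and 15 moved. With all 24 arrays in 1 fit, 1202 in place of 1984 genes were called in total RNA after miR-130a and 980 in place of 1591 after miR-205, and 4 in place of 8 other endosomal sorting genes after miR-130a. Asking for at least 1.5-fold left 693, 1072 and 640 genes in total RNA after miR-130a, miR-203 and miR-205 (2687 reported after miR-203), and 0, 4 and 5 other endosomal sorting genes in place of 8, 10 and 8. With every probe set as its own feature, the other endosomal sorting genes gave 42 features in place of 27 genes, so these counts have a larger base. In total RNA after miR-203, 17 of 42 were called in place of 10 of 27. Of the AGO2-bound changes after miR-205, 25 of 42 were called in place of 15 of 27. For the AGO2 change beyond total RNA, 26 and 25 of 42 were called after miR-203 and miR-205, in place of 17 and 14 of 27. Leaving out 1 array gave 4 to 7 other endosomal sorting genes in total RNA after miR-130a, with 5 without miR-130a replicate 1 and 4 without scramble replicate 3. Of all genes called in total RNA after miR-130a, 41.7% were higher after centring, against 54.5% as reported.

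For members, 480 of 510 recomputed total RNA changes kept their direction and their side of the threshold, 12 passed the test anew, 11 no longer passed and 7 turned round. The 510 recomputed AGO2-bound changes, which were not tested, all kept their direction, and 507 moved by less than 1 SD; the other 3 were TSG101 without AGO2-bound scramble replicate 1, at -3.95, -3.67 and -3.93 after miR-130a, miR-203 and miR-205. The 7 total RNA changes that turned round did not pass the test as reported: TSG101 after miR-130a without scramble replicate 1 (-0.079 to 0.039 over the left-out arrays), TSG101 after miR-205 without miR-205 replicate 2 or 3 or scramble replicate 2 or 3 (-0.033 to 0.084), CHMP2A after miR-203 under quantile normalization (0.0175), and CHMP2A after miR-205 without miR-205 replicate 3 (-0.141 to 0.0066). STAM2 after miR-203 passed the test with array weights (-0.34, limma adjusted p = 0.036). The cause was not tested. With the replicate number as a block, 3318 genes were called in AGO2-bound RNA after miR-130a in place of 2609, and of the calls named here the block changed only VPS4A in total RNA after miR-203 (adjusted p = 0.039). STAMBP and IST1 rose in total RNA under every alternative run.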
